A study of Mus musculus with 15 samples.

Results

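The ileum and the duodenum, the last and the first section of the small intestine, were compared by RNA-seq of mouse tissue. The comparison takes the 3 ileum and the 3 duodenum libraries of a series of 15, which also holds liver, jejunum and large intestine. All came from wild-type male C57BL/6 mice aged 2 to 3 months, and the labels name no treatment. Whether the mice were germ-free or carried gut bacteria is not stated here. The gut was rinsed with buffered saline, cut into sections and snap-frozen, so that muscle, connective tissue and lymphoid follicles are measured together with the epithelium. Libraries are called here by their section and the number in their title: duodenum 24, 27 and 28, and ileum 24, 25 and 27. The labels do not say whether a number stands for an animal or whether each sample of a section is a different animal. The p-values therefore rest on the spread among these 6 samples alone, part or all of which may be technical.

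The duodenum receives acid from the stomach, bile from the liver and digestive enzymes from the pancreas. It is known as the main site of iron uptake, and it also takes up folate and sugars. The ileum takes bile acids and vitamin B12 back from the lumen, signals bile acid return to the liver through the hormone FGF15, and meets more bacteria. Its crypts are known for many Paneth cells, which secrete antimicrobial peptides.

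Levels were given by the authors as FPKM, a level corrected for gene length and for library size, so the depth behind each value is unknown. Of 23349 genes, 12384 reached 1 FPKM in at least 3 of the 6 libraries and were tested with limma on log2(FPKM + 1), a scale that understates the differences of low genes. All differences below are ileum minus duodenum on that scale, and every adjusted p is from limma with Benjamini-Hochberg adjustment over the 12384 genes. Genes count as called when the adjusted p is below 0.05 and the difference is at least 1 in size. The FPKM of a library summed to between 428494 and 536553, and 11832 to 12470 genes reached 1 FPKM in each.

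2 of the 6 libraries stood apart. On the first principal component of the 9 small intestine libraries, which held 60.7% of the variance, the duodenum libraries scored between -41.86 and -30.66, ileum 25 scored 22.08 and ileum 27 scored 37.55. Ileum 24 scored 3.15, beside jejunum 27 at 4.74, and jejunum 24 scored 46.54, beyond every ileum library. These positions go against the labels of ileum 24 and jejunum 24. The labels were kept, and whether the samples numbered 24 were exchanged was not tested. Duodenum 28 held genes of the stomach and pancreas. Tff1, Gkn1, Gkn2 and Muc5ac, secreted products of the gastric surface, summed to 2412 FPKM there, against 0.597 in duodenum 24, 1.45 in duodenum 27 and at most 0.0721 in ileum. Of the whole list of 16 stomach and Brunner gland genes, 3 were listed at 0 in duodenum 28 and 3 to 8 in the other 5 libraries, and the list summed to 12813 FPKM against 80.9 to 233. 6 genes of pancreatic enzymes (Prss2, Cela2a, Ctrb1, Cpa1, Pnlip and Amy2a5) summed to 198 FPKM in duodenum 28, 11.5 in duodenum 24, 2.43 in duodenum 27 and 0.192 to 0.380 in ileum. The whole list of 28 exocrine pancreas genes, with 0 to 3 members listed at 0 in duodenum and 7 to 10 in ileum, summed to 6631 FPKM in duodenum 28, against 5038 and 4889 FPKM in duodenum 24 and 27 and 4826 to 5851 FPKM in ileum. 5 hepatocyte genes (Alb, Serpina3k, Mup3, Mup20 and Ahsg) summed to 28.7, 0.542 and 20.7 FPKM in duodenum 24, 27 and 28, and to at most 0.330 in ileum, while the whole list of 15 summed to 73.7, 19.6 and 57.9 FPKM in duodenum and 14.1 to 28.4 FPKM in ileum, a range that holds duodenum 27. The genes in the sums of 4, 6 and 5 genes were picked after their values were seen. The part of these admixed transcripts in the differences below was not tested; counts are given with and without ileum 24 and duodenum 28.

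**Figure D1:**
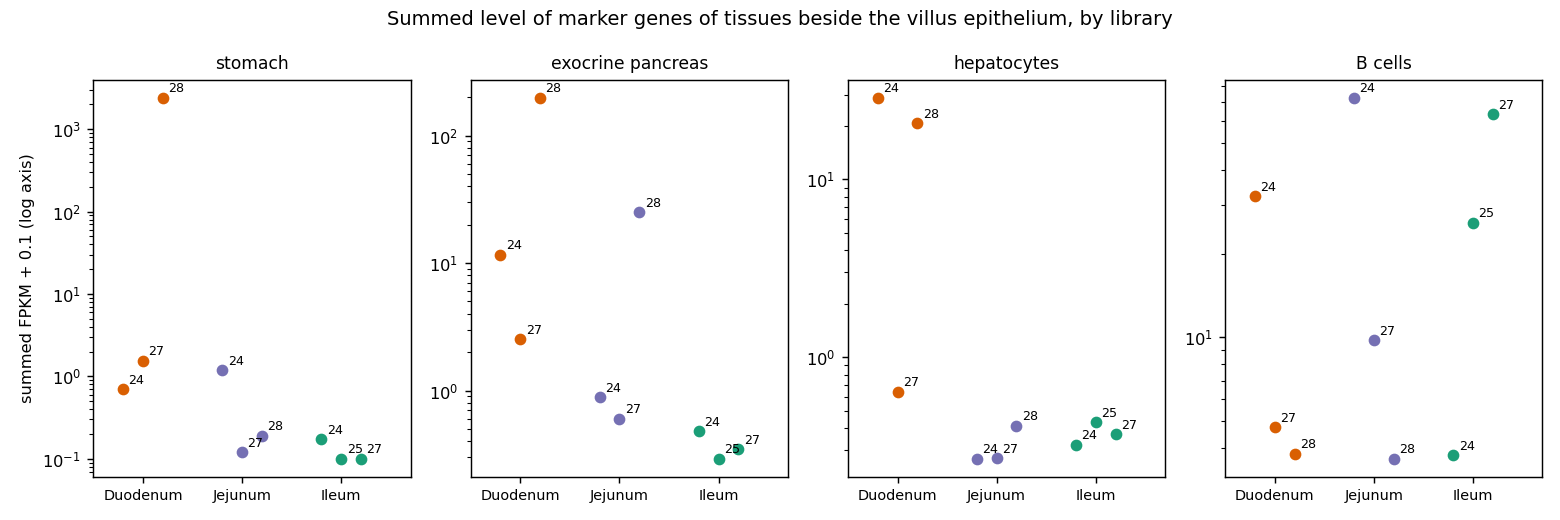
Summed FPKM plus 0.1 (log axis) of 4 stomach, 6 pancreas, 5 hepatocyte and 4 B cell genes in each duodenum, jejunum and ileum library, 1 point per library with its number. Duodenum 28 stands above all others for stomach (2412 FPKM) and pancreas (198 FPKM), duodenum 24 and 28 for hepatocytes, and B cell genes are highest in jejunum 24, ileum 27 and duodenum 24.

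Between the ends of the small intestine 157 genes were called higher in ileum, which is 1.27% of those tested, and 162 lower, which is 1.31%. Higher genes were led by bile acid, Paneth cell and lipase genes, and lower genes by Reg1 and genes of glutathione conjugation, folate uptake and water transport. In either direction 2.58% were called, and 33.1% had an unadjusted p under 0.05. Counts of called list members below are to be read against 1.27% higher and 1.31% lower over all genes. Of the higher genes 18 were below 1 FPKM in every duodenum library, and 11 of the lower genes in every ileum library, so they passed the filter only through the end where they were high and had to differ. Genes described below that passed in this way include Fgf15, Slc10a2 (not called), Trpm6, Plb1, Duox2, Duoxa2, Nos2, Slc5a8, Mgat4c and Cldn8 for ileum. For duodenum they include Slc19a3, Tmprss15, Ugt2b37 and Gm766, and also 1 carboxylesterase and 1 cytochrome P450 called lower. Values of such genes are given as a description. The median difference of all genes was 0.10. With median-of-ratios scaling it was -0.01, with libraries scaled to the same FPKM sum -0.03 and with quantile normalization 0.02. The share of calls that were higher in ileum moved from 49.2% to 33.8%, 32.3% and 44.6% in the same order. Without ileum 24 there were 253 higher (2.04%) and 336 lower (2.71%), which shared 153 and 158 genes with the first count. Without duodenum 28 there were 84 higher (0.678%) and 30 lower (0.242%), and without both 238 (1.92%) and 279 (2.25%). In all, 85 genes, 63 higher and 22 lower, were called in each of the 6 fits that left out 1 library.

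**Figure D2:**
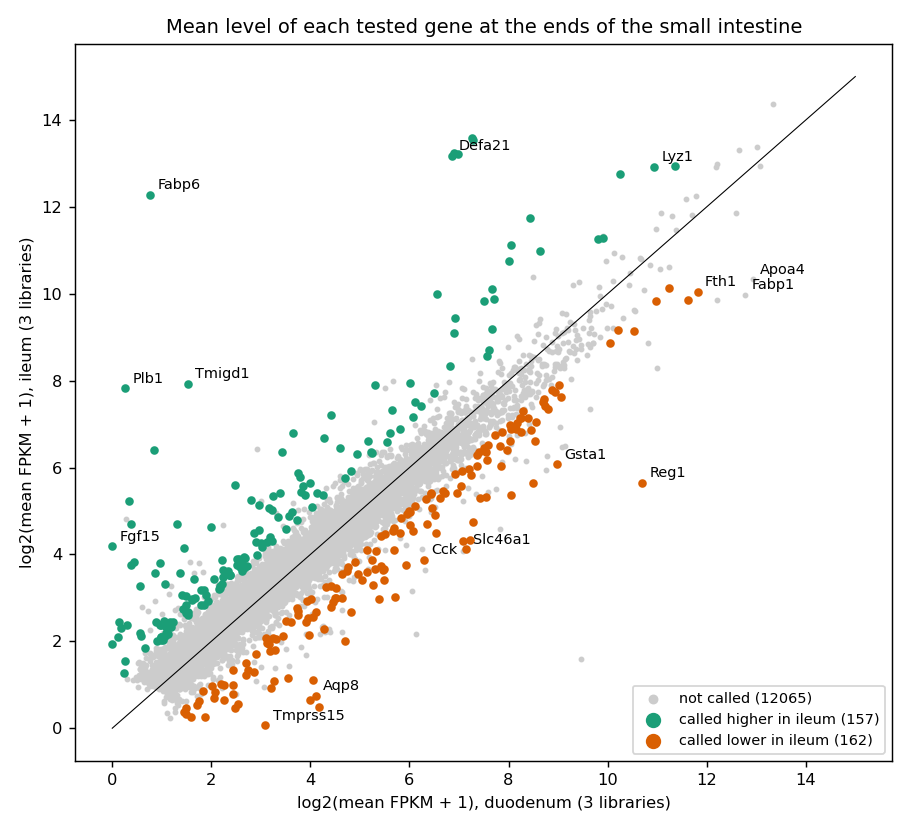
Mean level of each of 12384 genes in duodenum (x axis) and ileum (y axis), both as log2(mean FPKM + 1) over 3 libraries, with the line of equal levels. Green points are the 157 genes called higher in ileum and orange points the 162 called lower; Fabp6 and Plb1 lie farthest above the line, and Reg1 lies far below it, while Fabp1 and Apoa4 were not called.

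3 bile acid genes were higher in ileum. Fabp6, which encodes the bile acid binding protein of the ileal enterocyte (chr11:43596040-43601562, mm10), had the largest difference of all called genes. It stood at 0.156, 1.62 and 0.324 FPKM in duodenum 24, 27 and 28 and at 255, 6597 and 8112 FPKM in ileum 24, 25 and 27. Ileum 24 was far below the other ileum libraries, yet the groups did not overlap. The difference was 10.56 (SE 1.55, adjusted p = 0.028), and 12.17 without ileum 24 (adjusted p = 3.27e-05). Fgf15, the ileal hormone that represses bile acid synthesis in liver, was listed at 0 in all 3 duodenum libraries and at 7.77, 32.4 and 11.4 FPKM in ileum 24, 25 and 27 (difference 3.94, SE 0.48), and passed the filter through ileum alone. Nr1h4, the nuclear bile acid receptor FXR, stood at 12.7, 16.0 and 13.0 FPKM in duodenum and 25.3, 37.8 and 56.9 FPKM in ileum (difference 1.39, SE 0.27, adjusted p = 0.0286). It was thus present at both ends, with all ileum libraries above all duodenum libraries.

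The calls of transporters in the same circuit depended on ileum 24. Slc10a2, the apical sodium-dependent bile acid carrier, stood at 0.165 to 0.233 FPKM in duodenum and at 1.86, 21.9 and 57.9 FPKM in ileum 24, 25 and 27. It was not called with all libraries (difference 3.70) and was called without ileum 24 (4.93). Slc10a2 passed the filter through ileum alone, so these values are a description. Slc51a and Slc51b, which together form the basolateral bile acid exporter, were at 111 FPKM each in ileum 24, within the duodenum range of 71.3 to 135 FPKM, and at 292 to 329 FPKM in ileum 25 and 27. Their differences were 1.07 and 1.27 (adjusted p = 0.153 and 0.0992), and 1.57 and 1.75 without ileum 24 (adjusted p = 0.00419 and 0.00315). The efflux pump gene Abcc2 was not called (-0.88, adjusted p = 0.107), nor were Abcc3 (-0.43, adjusted p = 0.0584) and the FXR target Nr0b2 (-0.73, adjusted p = 0.159). In all, 3 of 9 tested bile acid genes were called higher and 0 lower, with a median difference of 1.27, and 6 higher and 1 lower (Abcc2) without ileum 24. The other 4 listed genes, Abcb11, Gpbar1, Slc10a1 and Slco1a4, did not pass the filter. All 3 calls were lost without duodenum 24 (adjusted p 0.0580 to 0.109) or duodenum 28 (0.0696 to 0.111), those of Fabp6 and Nr1h4 without ileum 25 (0.125 and 0.121), and that of Fabp6 without ileum 27 (0.105). The Fabp6 difference was 9.83 without ileum 25 and 9.68 without ileum 27.

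**Figure D3:**
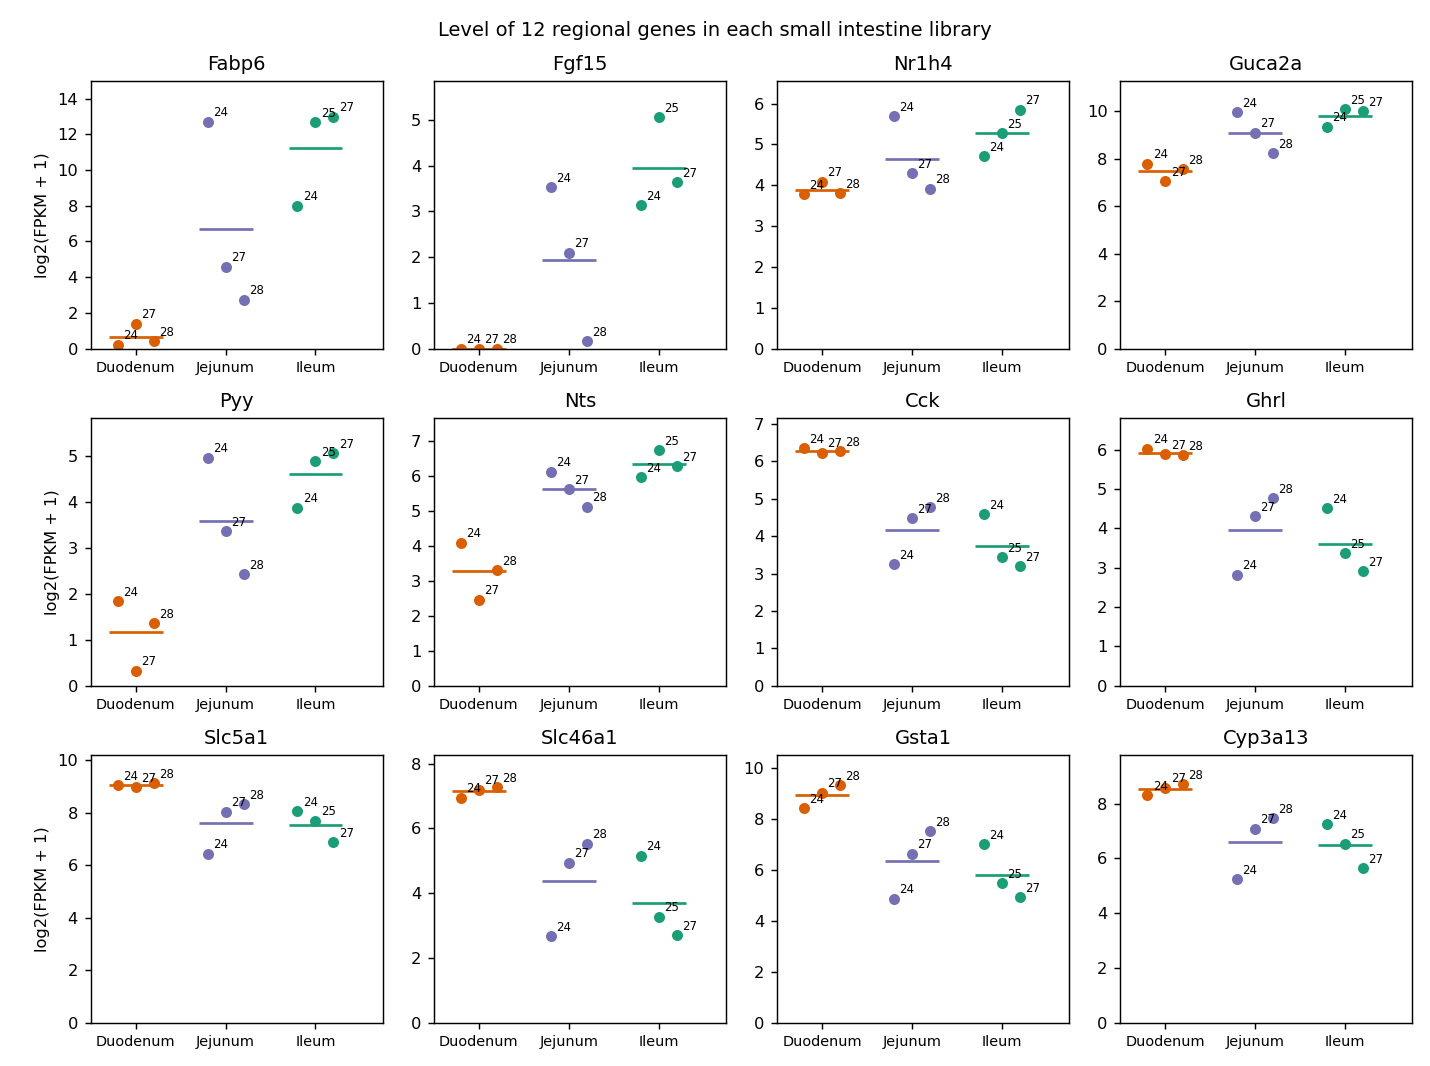
Level of 12 genes as log2(FPKM + 1) in each duodenum, jejunum and ileum library, 1 point per library with its number, and a line at the mean of each section's 3 libraries. Ileum 24 lies on the duodenum side of the other ileum libraries for most genes, as for Fabp6 (255 FPKM against 6597 and 8112), and jejunum 24 lies at ileum levels.

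Promoters of some genes that marked either end are shown. The regulators of these sections, FXR and the GATA and CDX factors, are known to bind short motifs in such regions. Sequences are the 250 bases before the gene start, from RefSeq on GRCm38.p6, 5′ to 3′ on the strand of the gene. Capitals mark matches on either strand. In Nts, Muc2 and Cck they mark AGATAA, the motif of GATA factors, and in Fabp6 the FXR inverted repeat, spelled out after the sequences. The windows are those of Fabp6 (chr11:43601563-43601812, minus strand), Nts (chr10:102490419-102490668, minus strand), Muc2 (chr7:141690090-141690339, plus strand) and Cck (chr9:121495695-121495944, minus strand). Nts and Muc2 were higher in ileum and Cck was lower. Every window shown holds a match, so these are examples and not a sample of the promoters of called genes. AGATAA stood in only 13.6% of the windows of higher genes and 13.9% of those of lower genes.
Fabp6: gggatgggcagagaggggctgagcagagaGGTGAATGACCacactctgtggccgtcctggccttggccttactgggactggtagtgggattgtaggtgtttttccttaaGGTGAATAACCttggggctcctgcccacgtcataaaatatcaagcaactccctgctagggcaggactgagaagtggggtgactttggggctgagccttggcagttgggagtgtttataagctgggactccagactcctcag
Nts: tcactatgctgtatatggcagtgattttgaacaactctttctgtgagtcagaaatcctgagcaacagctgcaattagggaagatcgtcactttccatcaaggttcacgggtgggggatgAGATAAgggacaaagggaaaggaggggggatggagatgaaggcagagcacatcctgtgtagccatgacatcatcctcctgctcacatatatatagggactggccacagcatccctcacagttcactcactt
Muc2: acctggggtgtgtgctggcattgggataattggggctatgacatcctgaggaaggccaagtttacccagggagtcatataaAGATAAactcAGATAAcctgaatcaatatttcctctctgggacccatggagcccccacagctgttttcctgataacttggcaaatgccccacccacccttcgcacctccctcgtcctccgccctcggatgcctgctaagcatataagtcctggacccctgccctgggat
Cck: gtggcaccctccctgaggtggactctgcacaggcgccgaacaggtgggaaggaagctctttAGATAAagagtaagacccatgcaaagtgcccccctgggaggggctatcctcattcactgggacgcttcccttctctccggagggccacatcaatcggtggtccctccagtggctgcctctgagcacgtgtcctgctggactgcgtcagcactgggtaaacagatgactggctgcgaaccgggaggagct

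The FXR inverted repeat was searched as the half-site GGTNA and its mirror on the other strand, 1 base apart. The Fabp6 window held 2 matches, beginning 221 and 141 bases before the start. The letters of the inverted repeat were chosen with the Fabp6 sequence in view, and 0.205% of the 11702 windows of the 9165 tested genes that matched the RefSeq table held it. AGATAA stood in 6.34% of all these windows, in 13.6% of 140 windows of genes called higher in ileum and in 13.9% of 165 windows of genes called lower. TTTATNG, a CDX motif, stood in 6.39% of all windows, 10.7% of those of higher genes and 10.3% of those of lower genes. AGATAA and TTTATNG were thus about as frequent before higher as before lower genes. The inverted repeat stood in 1 of the 140 windows of higher genes (0.714%), that of Fabp6, and in 0 of the 165 of lower genes. No occurrence of the inverted repeat can share a base with AGATAA. These shares are descriptions, and a match is not a binding site.

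Genes for vitamins divided between the ends. Slc46a1, the proton-coupled folate carrier of the upper gut, was lower in ileum, at 34.8, 8.68 and 5.48 FPKM in ileum 24, 25 and 27 against 122, 146 and 154 FPKM in duodenum 24, 27 and 28. All ileum libraries lay below all duodenum libraries (difference -3.43, SE 0.66, adjusted p = 0.0373, and -4.15 without ileum 24, adjusted p = 4.4e-05). The thiamine carrier Slc19a3 (-1.59) and the reduced folate carrier Slc19a1 (-1.01) were also lower. Slc52a3, which carries riboflavin, was higher in ileum, at 28.8, 56.1 and 40.1 FPKM against 9.73, 8.52 and 10.2 FPKM (difference 1.98, SE 0.22, adjusted p = 0.00637). So was Slc44a4 (1.30, adjusted p = 0.0491), known as a carrier of choline and of bacterial thiamine pyrophosphate. Cubn and Amn, which form the receptor for vitamin B12 with intrinsic factor, were not called. Cubn had an adjusted p of 0.0154 but a difference of 0.85, from 22.9 to 28.8 FPKM in duodenum and 40.3 to 55.3 FPKM in ileum, and Amn differed by 0.40 (adjusted p = 0.141). Of 18 tested genes 2 were called higher and 3 lower, against 1.27% and 1.31% of all genes, with a median of 0.04. The call of Slc52a3 was kept in all 6 fits without 1 library. The other 4 calls were lost without ileum 25 (adjusted p 0.0689 to 0.172) or duodenum 28 (0.0647 to 0.133), 3 of them without duodenum 27 and 2 without duodenum 24 or ileum 27.

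Minerals showed a phosphate and magnesium pair at the ileal end and an iron storage gene at the duodenal end. Slc34a2, the sodium-phosphate carrier NaPi-IIb of the brush border, stood at 12.5, 7.49 and 14.6 FPKM in duodenum 24, 27 and 28 and at 65.7, 145 and 118 FPKM in ileum 24, 25 and 27. The groups did not overlap (difference 3.12, SE 0.35, adjusted p = 0.00906), and the call was kept without any 1 library. Trpm6, a magnesium channel, was higher as well (2.03, SE 0.31), at 0.105 to 0.198 FPKM in duodenum and 1.78 to 6.08 FPKM in ileum; its call was lost without duodenum 24, duodenum 28 or ileum 25 (adjusted p = 0.0687, 0.0759 and 0.0841). S100g, the calcium-binding protein of the duodenum, stood at 27.9, 36.7 and 131 FPKM in duodenum 24, 27 and 28, the highest value in the library with stomach genes, against 7.42 to 8.40 FPKM in ileum. It was not called with all 6 libraries (difference -2.55, adjusted p = 0.0555) and was called without duodenum 28 (-1.88, adjusted p = 0.00495 by limma). The vitamin D receptor Vdr, which is known to regulate it, was not called (-0.00, SE 0.15). The calcium channel gene Trpv6 did not pass the filter. Of 10 tested calcium, phosphate and vitamin D genes, 2 were called higher and 0 lower.

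Among iron genes 1 of 20 was called, against 2.58% of all genes in either direction, and it was lower. Fth1, the heavy chain of the iron store ferritin, stood at 2977, 3718 and 4107 FPKM in duodenum 24, 27 and 28 and at 1383, 963 and 825 FPKM in ileum 24, 25 and 27, without overlap (difference -1.79, SE 0.27, adjusted p = 0.0123). Its call was lost without duodenum 28 (adjusted p = 0.0558) or ileum 25 (0.0795). The carriers of iron uptake were not called: the apical importer Slc11a2 differed by -0.15 (SE 0.10), the ferroxidase Heph by -0.15 (SE 0.12), the exporter Slc40a1 by -0.09 (SE 0.39) and the ferrireductase Cybrd1 by 0.23 (SE 0.22). Cybrd1 was low at both ends, with at most 1.68 FPKM. The sign for Slc40a1 turned without ileum 24 (0.12), ileum 25 (0.07) or duodenum 28 (0.13).

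Several sugar genes were lower in ileum. Of 24 tested genes of sugar digestion, uptake and fructose use 9 were called lower and 0 higher, with a median difference of -1.24, and 15 lower and 0 higher without ileum 24. Groups did not overlap for 17 genes that were lower in ileum, against 14.6% of all tested genes, and for 1 that was higher, against 24.9%. Slc5a1, the sodium-glucose carrier SGLT1, stood at 531, 503 and 559 FPKM in duodenum 24, 27 and 28 and at 265, 207 and 117 FPKM in ileum 24, 25 and 27 (difference -1.51, SE 0.28, adjusted p = 0.0209). Its relative Slc5a4a differed by -2.01 and the trehalose-splitting enzyme gene Treh by -1.73. The gluconeogenic enzyme gene Fbp1 (-1.73, SE 0.19, adjusted p = 0.00568) fell from 40.2 to 43.6 FPKM in duodenum to 9.75 to 17.1 FPKM in ileum. The fructokinase gene Khk differed by -1.52, and sucrase-isomaltase, Sis, by -1.19 (SE 0.26, adjusted p = 0.0316).

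3 further sugar genes had levels below the duodenum that were uneven among the ileum libraries. Slc2a2, the basolateral glucose carrier GLUT2, stood at 125 to 140.2 FPKM in duodenum and at 37.6, 9.45 and 0.918 FPKM in ileum 24, 25 and 27. It was not called with all 6 libraries (-3.88, adjusted p = 0.0960) and was called when ileum 24 was left out (-4.91, adjusted p = 0.0317). The fructose carrier Slc2a5 did likewise (-1.94, adjusted p = 0.00118, against -1.54, adjusted p = 0.0549). Lactase, Lct, at 308 to 333 FPKM in duodenum and 232, 87.6 and 13.1 FPKM in ileum, was not called in either fit (adjusted p = 0.201 and 0.0669). The call of Fbp1 was kept in all 6 fits without 1 library. The other 8 were lost without duodenum 24 (adjusted p 0.0609 to 0.139), duodenum 28 (0.0692 to 0.163) or ileum 25 (0.0775 to 0.161), and some without duodenum 27 (2 calls) or ileum 27 (3 calls).

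Lipid absorption genes mostly had lower levels in ileum, yet none was called lower with all 6 libraries. Among 29 genes of fatty acid uptake and chylomicron assembly 1 was called higher and 0 lower, with a median of -0.61; groups did not overlap for 19 that were lower in ileum, against 14.6% of all tested genes. Without ileum 24 there were 9 lower calls, and without both ileum 24 and duodenum 28 there were 4. Fabp1, the fatty acid binding protein of the upper gut, stood at 6628, 6477 and 7809 FPKM in duodenum 24, 27 and 28 and at 2678, 299 and 38.2 FPKM in ileum 24, 25 and 27. The 3 ileum libraries were spread over a wide range below the duodenum (difference -4.46, SE 1.54, adjusted p = 0.119, and -6.00 without ileum 24, adjusted p = 0.00746). Apoa4, an apolipoprotein of chylomicrons, showed the same order (8689, 6907 and 7854 FPKM against 3102, 693 and 81.7 FPKM) with a difference of -3.79 (adjusted p = 0.117), and -5.02 without ileum 24 (adjusted p = 0.0140). The fatty acid translocase Cd36 was not called with all 6 libraries and was called lower without ileum 24 (-1.58, adjusted p = 0.00555). Fabp2, the other fatty acid binding protein of enterocytes, stood at 2827 to 3498 FPKM in duodenum and 2472 to 6926 FPKM in ileum and was not called (0.47, adjusted p = 0.409). The called gene was Pnliprp2, a lipase related to that of the pancreas, at 25.9 to 47.7 FPKM in duodenum and 91.4 to 104 FPKM in ileum (1.49, SE 0.21, adjusted p = 0.0105), which was lost without ileum 25 (adjusted p = 0.0554).

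Few sterol and retinoid genes were called, where 2.58% of all genes were called in either direction. The cholesterol uptake gene Npc1l1 was not called (-0.27, adjusted p = 0.555), nor were Abcg5 (-0.48) and Abcg8 (-0.34), which return sterols to the lumen. Of 14 genes of cholesterol absorption and efflux, 1 was called higher: Mylip, which targets the LDL receptor for degradation (1.18, SE 0.20, adjusted p = 0.0154; not called without duodenum 24, duodenum 28, ileum 25 or ileum 27). For cholesterol synthesis 0 of 23 genes were called, with a median of 0.57, while 13 had an unadjusted p under 0.05 (33.1% of all genes), 2 were called in the fit of all 15 libraries (3% of all genes) and 10 had all ileum libraries above all duodenum libraries (24.9% of all genes). Without ileum 24, 6 were called higher, among them Hmgcs1 (1.41, adjusted p = 0.000495) and Sqle (1.59, adjusted p = 0.000305), named after their values were seen. Among 19 retinoid genes 1 was called, the retinal-oxidising Aldh1a1 (-1.30, SE 0.25, adjusted p = 0.0216). It was not called without duodenum 24 or 28 or ileum 25 or 27. The median of the 19 was -0.47, and 11 had an unadjusted p under 0.05 (33.1% of all genes). In the fit of all 15 libraries 4 were called (3% of all genes). For 9 all ileum libraries lay below all duodenum libraries (14.6% of all genes). Without ileum 24, 5 were called lower (2.71% of all genes).

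Of 32 genes of ketogenesis and fatty acid oxidation 4 were called lower and 1 higher, with a median of -0.47. The acyl-CoA thioesterase Acot1 stood at 7.45, 7.20 and 8.47 FPKM in duodenum 24, 27 and 28 and at 3.41, 2.74 and 2.53 FPKM in ileum 24, 25 and 27. The groups lay well apart (difference -1.16, SE 0.12, adjusted p = 0.00407), and the call was kept in each fit without 1 library. The fatty acid hydroxylase Cyp4a10 (-2.10) and the peroxisomal thiolase Acaa1b (-1.08) were lower too, while Vnn1, a pantetheinase, was higher (1.09). The calls of these 3 genes were lost without duodenum 24, duodenum 28 or ileum 25 (adjusted p 0.0651 to 0.129). Ppara, the receptor known to drive several of these genes, was not called (0.04, SE 0.13, adjusted p = 0.824), with 8.27 to 10.9 FPKM in all 6 libraries, and its sign changed with the scaling.

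Digestive enzymes of the brush border split by gene. Plb1, a brush border phospholipase B, stood at 0.267, 0.183 and 0.153 FPKM in duodenum 24, 27 and 28 and at 193, 368 and 115 FPKM in ileum 24, 25 and 27, the second largest called difference (7.40, SE 0.41). It passed the filter through ileum alone. Ileum 24 lay within the range of the other ileum libraries. The intestinal alkaline phosphatase gene Alpi was lower in ileum, at 152 to 247 FPKM against 379 to 591 FPKM (-1.21, SE 0.25, adjusted p = 0.0267). Of 12 phosphatase and lipase genes 2 were called each way, the others being Pla2g2a (1.68), a phospholipase of Paneth cells, and the lysosomal Lipa (-1.07). The calls of Alpi, Pla2g2a and Lipa were each lost without duodenum 28 or ileum 25.

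Among 21 peptidases and other luminal hydrolases 3 were called higher and 2 lower (Tmprss15 and Treh). Naaladl1, a peptidase of the ileal brush border, stood at 139, 102 and 119 FPKM in duodenum 24, 27 and 28 and at 409, 822 and 845 FPKM in ileum 24, 25 and 27 (2.46, SE 0.29, adjusted p = 0.00633). The membrane aminopeptidase P gene Xpnpep2 (2.38) and the meprin subunit Mep1a (2.49) were higher as well. Tmprss15, the enteropeptidase that activates pancreatic trypsinogen, stood at 3.18, 11.6 and 7.79 FPKM in duodenum and at most 0.103 FPKM in ileum (-2.89, SE 0.38), and passed the filter through duodenum alone. The peptide carrier Slc15a1 was not called (0.17). Of 20 peptide and amino acid carriers 1 was called, the glutamate carrier Slc1a1 (1.47, SE 0.26, adjusted p = 0.0214). Naaladl1 and Xpnpep2 were kept without any 1 library; Mep1a and Slc1a1 were lost without duodenum 24, duodenum 28 or ileum 25, and Tmprss15 without duodenum 28 or ileum 25 (adjusted p 0.0540 to 0.144 over the lost calls of both lists).

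Genes of drug and xenobiotic metabolism, the subject named in the title of the series, were called lower in ileum in several families, though most were not called. Of 42 cytochrome P450 genes of families 1 to 4, 8 were called lower and 0 higher, against 1.31% and 1.27% of all genes (median difference -1.11). For 33 all ileum libraries lay below all duodenum libraries, against 14.6% of all tested genes. 3 of the 42 passed the filter through duodenum alone, and 1 of these was among the lower calls. Cyp3a13, a drug-oxidising P450 of the gut, stood at 314, 382 and 415 FPKM in duodenum 24, 27 and 28 and at 151, 91.6 and 48.9 FPKM in ileum 24, 25 and 27 (-2.05, SE 0.38, adjusted p = 0.0247). The epoxygenase Cyp2j6 (-1.53) and Cyp2c55 (-1.37) were lower too. Without ileum 24 the count rose to 27 lower and 1 higher, and with median-of-ratios scaling to 12 lower. In the fit of all 15 libraries 16 were called, where 3% of all genes were. Several abundant members that were not called with the 6 libraries were called without ileum 24. Cyp3a11 stood at 618, 863 and 916 FPKM in duodenum and 361, 98.9 and 29.9 FPKM in ileum 24, 25 and 27 (-2.93, adjusted p = 0.0933, against -3.83, adjusted p = 0.00438, without ileum 24). Cyp2b10 went from 506 to 564 FPKM in duodenum to 278, 73.5 and 12.4 FPKM (-4.06 without ileum 24, adjusted p = 0.0243), and Cyp2c29 from 167 to 289 FPKM to 65.1, 4.08 and 0.373 FPKM (-6.39 without ileum 24, adjusted p = 0.00555). Cyp1a1, a target of the aryl hydrocarbon receptor, was not called in either fit (-1.22, adjusted p = 0.119, with all libraries and adjusted p = 0.0815 without ileum 24). None of the 8 calls was kept in every fit without 1 library: 7 were lost without duodenum 24 or 28 and 8 without ileum 25 (adjusted p 0.0582 to 0.135).

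Some conjugating enzymes were lower in ileum too. Of 12 UDP-glucuronosyltransferases 6 were called lower and 0 higher, against 1.31% and 1.27% of all genes (median -1.39). For 11 all ileum libraries lay below all duodenum libraries (14.6% of all genes). Ugt2b5 stood at 39.6, 44.1 and 48.4 FPKM in duodenum 24, 27 and 28 and at 10.5, 7.77 and 10.8 FPKM in ileum 24, 25 and 27. Here ileum 24 lay with the other ileum libraries (-2.08, SE 0.14, adjusted p = 0.000629). Ugt2b35 (-1.58) and Ugt2b38 (-1.56) were also called in every fit without 1 library. Ugt2b37 (-1.13), 1 of the 6 lower calls, passed the filter through duodenum alone. Ugt1a9 (-2.31) and Ugt1a7c (-1.22) share exons of 1 locus. Their calls were lost without duodenum 24, duodenum 28 or ileum 25 (adjusted p 0.0695 to 0.114), and that of Ugt1a7c also without ileum 27.

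Of 22 glutathione S-transferases 9 were called lower and 0 higher, against 1.31% and 1.27% of all genes (median -1.21). For 19 the groups did not overlap, with ileum lower (14.6% of all genes). Gsta1 stood at 344, 525 and 639.6 FPKM in duodenum and at 127, 43.8 and 29.4 FPKM in ileum 24, 25 and 27 (-3.13, SE 0.56, adjusted p = 0.0277, and -3.73 without ileum 24). Its near copies Gsta2 (-3.14), Gm3776 (-3.08) and Gm10639 showed the same, and reads can be split among them. Gstm1, of the mu class, stood at 209 to 331 FPKM in duodenum and 19.9 to 77.6 FPKM in ileum (-2.95, and -3.56 without ileum 24). The 9 calls were each lost without ileum 25, 8 without duodenum 28 and 7 without duodenum 24 (adjusted p 0.0526 to 0.145), 4 without ileum 27 and 3 without duodenum 27. Of 5 sulfotransferases 0 were called and 1 had an unadjusted p under 0.05, against 33.1% of all genes (median -0.14).

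Of 13 carboxylesterases, which split esters and many prodrugs, 9 were called lower and 1 higher, the same counts as without ileum 24. Over all genes 1.31% were lower and 1.27% higher. 2 of the 13 passed the filter through duodenum alone, and 1 of these was among the lower calls. Ces2c stood at 285, 292 and 338 FPKM in duodenum and 135, 115 and 83.6 FPKM in ileum (-1.47, SE 0.19, adjusted p = 0.00818), and Ces2g had the largest difference (-3.05, SE 0.62, adjusted p = 0.0419, and -3.76 without ileum 24). Ces1c, low at both ends, was the exception (0.882 to 1.27 FPKM in duodenum, 3.07 to 4.70 FPKM in ileum, difference 1.24). Carboxylesterase genes are close copies in clusters, so the reads of each are uncertain. Of 37 alcohol, aldehyde and carbonyl enzymes 8 were called lower and 0 higher, against 1.31% and 1.27% of all genes (median -0.57). Among the lower genes were Adh4 (-2.92), the lipid droplet enzyme Hsd17b13 (-1.86, SE 0.20, adjusted p = 0.00569) and carbonyl reductase Cbr1 (-1.66). Calls kept without any 1 library were 5 of the 10 carboxylesterases (Ces1c, Ces1f, Ces2b, Ces2c and Ces2d-ps) and Hsd17b13.

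Drug transporters and drug or lipid sensors were called about as rarely as all genes (2.58%). Of 16 efflux and 22 uptake transporters 0 were called in either direction by limma, while 7 and 10 had an unadjusted p under 0.05, against 33.1% of all genes, and 1 and 0 were called in the fit of all 15 libraries, against 3%. Without ileum 24 there were 2 higher and 1 lower efflux genes and 1 higher and 2 lower uptake genes. P-glycoprotein, Abcb1a, differed by 0.25 (SE 0.25) and the breast cancer resistance protein gene Abcg2 by 0.12 (SE 0.22); both had overlapping groups, Abcg2 turned negative under 2 of 3 other scalings, and both turned negative without ileum 27. Of 28 nuclear receptors and partners 1 was called, Nr1h4. The pregnane X receptor Nr1i2 differed by -0.21 (SE 0.14, adjusted p = 0.317). Nr1i3, the receptor CAR that is known to induce Cyp2b10, stood at 21.1, 41.2 and 29.0 FPKM in duodenum and at 26.4, 9.80 and 3.68 FPKM in ileum 24, 25 and 27. It was called lower without ileum 24 (-2.10, adjusted p = 0.0368) and not with all 6 libraries (-1.45, adjusted p = 0.215).

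**Figure D4:**
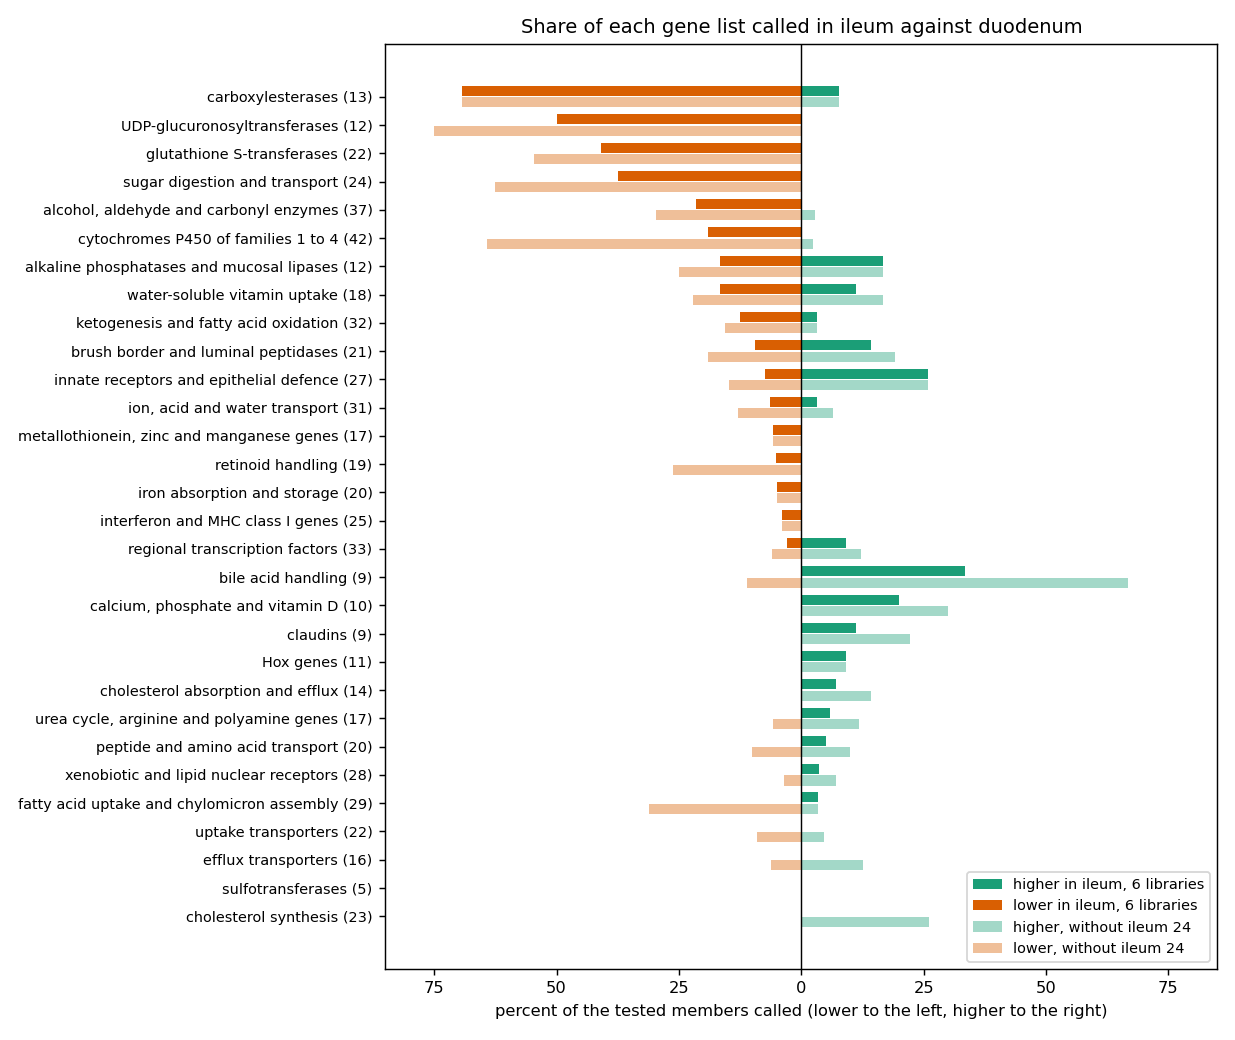
Percent of the tested members of each physiological gene list (number tested in brackets) called lower (left, orange) or higher (right, green) in ileum, with all 6 libraries (dark bars) and without ileum 24 (pale bars). Carboxylesterases, UDP-glucuronosyltransferases, glutathione S-transferases and sugar genes have the largest lower shares, and bile acid genes the largest higher share; over all genes 1.31% were lower and 1.27% higher.

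Paneth cell genes were higher in ileum than in duodenum. Of 17 tested genes 10 were called higher and 0 lower, against 1.27% and 1.31% of all genes, with a median difference of 1.55. For 15 all ileum libraries lay above all duodenum libraries, against 24.9% of all tested genes. The 17 genes summed to 23034 to 46791 FPKM in duodenum and 95114 to 98670 FPKM in ileum. In jejunum they summed to 88289 to 116138 FPKM, a range that holds that of ileum, so the higher sum was not particular to the ileum. The alpha-defensin Defa20 stood at 191, 119.6 and 154 FPKM in duodenum 24, 27 and 28 and at 7879, 12608 and 15122 FPKM in ileum 24, 25 and 27 (6.23, SE 0.30, adjusted p = 0.000141). In jejunum 24, 27 and 28 it stood at 16675, 7379 and 1064 FPKM. Defa21 (6.45) and Defa22 (6.44) showed the same gap, as did the defensin-like records Gm21002 (6.29) and Gm15308 (6.21). Not all members did: Defa23 differed by 0.42, Defa17 by 0.78 and Defa24 by 1.07 without a call. Alpha-defensins are near-identical copies, so the reads of each member are uncertain. Lyz1, the Paneth cell lysozyme, stood at 1626 to 2531 FPKM in duodenum and 7265 to 8288 FPKM in ileum (2.01, SE 0.27, adjusted p = 0.00873). Mmp7, the protease that matures defensins in mice (1.70, SE 0.18, adjusted p = 0.0053), and the ribonuclease Ang4 (2.22, SE 0.25, adjusted p = 0.00545) were higher as well. Calls kept without any 1 library were those of Defa5, Defa20, Defa21, Defa22, Mmp7 and Ang4; Lyz1, Itln1 and Pla2g2a were lost without duodenum 28 or ileum 25. In such bulk tissue more cells of a type and more RNA per cell cannot be told apart.

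Several epithelial defence genes were also higher. Of 27 tested genes of innate sensing and defence 7 were called higher and 2 lower; 3 of the 7, Duox2, Duoxa2 and Nos2, passed the filter through ileum alone. Duox2, which makes hydrogen peroxide at the apical membrane, stood at 0.417, 0.219 and 0.446 FPKM in duodenum 24, 27 and 28 and at 12.2, 15.9 and 11.1 FPKM in ileum 24, 25 and 27 (3.36, SE 0.15). Its maturation factor Duoxa2 (2.67) and the inducible nitric oxide synthase Nos2 (3.27) were higher too. The lectin Reg3g (2.51), which passed the filter at both ends, was called in all 6 fits without 1 library. Reg3b, a lectin like Reg3g, stood at 259.9 to 622 FPKM in duodenum and 1078 to 2601 FPKM in ileum (2.35; lost without duodenum 28 or ileum 27). Reg1 went the other way, at 1064, 2007 and 1927 FPKM in duodenum and 135, 8.08 and 4.53 FPKM in ileum 24, 25 and 27. Its difference was the largest among lower genes (-6.40, SE 1.32, adjusted p = 0.0481, and -7.82 without ileum 24), but the call was lost without any other 1 of the libraries (adjusted p 0.0641 to 0.158), and without ileum 27 it was -5.51. Reg1 is also made by the exocrine pancreas. The 6 pancreatic genes summed to 11.5, 2.43 and 198 FPKM in duodenum 24, 27 and 28, and the part of pancreatic transcripts in the Reg1 difference was not tested. The cytokine Il18 was lower in ileum (-2.17, SE 0.41, adjusted p = 0.0303; lost without duodenum 24, duodenum 28 or ileum 25). Of 25 interferon and MHC class I genes 1 was called, Isg15 (-1.12; -0.99 without duodenum 28).

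Hormone genes of enteroendocrine cells separated the ends in both directions. Of 21 tested genes 2 were called higher and 4 lower, against 1.27% and 1.31% of all genes. Pyy, peptide YY, stood at 2.57, 0.251 and 1.56 FPKM in duodenum 24, 27 and 28 and at 13.7, 28.8 and 32.5 FPKM in ileum 24, 25 and 27 (3.44, SE 0.49, adjusted p = 0.0188). Neurotensin, Nts, stood at 16.0, 4.48 and 8.82 FPKM against 61.6, 106 and 76.8 FPKM (3.05, SE 0.44, adjusted p = 0.018). Cholecystokinin, Cck, which releases bile and pancreatic juice, stood at 80.6, 74.5 and 76.2 FPKM in duodenum and 23.1, 9.89 and 8.19 FPKM in ileum (-2.54, SE 0.35, adjusted p = 0.0151). Ghrelin, Ghrl (-2.33), somatostatin, Sst (-1.26), and the granule protein Chgb (-1.10) were lower too. The incretin gene Gip was called lower without ileum 24 (-2.64, adjusted p = 0.00582) and not with all 6 libraries (-2.01, adjusted p = 0.101). Proglucagon, Gcg, did not reach the threshold (0.58, adjusted p = 0.0562), though its ileum libraries, at 31.9 to 44.9 FPKM, lay above those of the duodenum, at 22.8 to 30.8 FPKM. Secretin, Sct, was not called (0.11, SE 0.18). The general marker Chga differed by -0.53 and Neurod1 by 0.08, neither called. All 6 calls were lost without duodenum 28 or ileum 25, 4 without duodenum 24 and 3 without ileum 27 (adjusted p 0.0525 to 0.158), and that of Chgb also without duodenum 27.

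Some goblet cell genes were higher in ileum, and genes of ion and water transport were called in both directions. Muc2, the gel-forming mucin of goblet cells, stood at 127, 108 and 102 FPKM in duodenum 24, 27 and 28 and at 249.5, 353 and 370.3 FPKM in ileum 24, 25 and 27 (1.5, SE 0.19, adjusted p = 0.0068). Atoh1, the factor that specifies secretory cells, was higher by 1.22 (SE 0.16, adjusted p = 0.00818). They were the 2 of 11 goblet cell genes called, and both were kept without any 1 library. Guca2a, the luminal hormone guanylin, stood at 219, 132 and 188 FPKM in duodenum and at 650.2, 1089 and 1017 FPKM in ileum (2.34, SE 0.27, adjusted p = 0.00568). Of 31 genes of ion, acid and water transport it was the 1 called higher, and 2 were called lower. Guca2b went the other way, at 1223 to 1644 FPKM in duodenum and 524 to 1018 FPKM in ileum. It was not called with all 6 libraries (-0.99, adjusted p = 0.0602) and was called lower without ileum 24 (-1.21, adjusted p = 0.0309). The water channel Aqp8, at 12.4 to 22.6 FPKM in duodenum and 1.95, 0.0829 and 0 FPKM in ileum 24, 25 and 27 (-3.50, SE 0.47, adjusted p = 0.0156), and the bicarbonate cotransporter Slc4a7 (-1.39, SE 0.16, adjusted p = 0.00565) were lower. Guca2a and Slc4a7 were kept without any 1 library, while Aqp8 was lost without duodenum 24, duodenum 28 or ileum 25 (adjusted p 0.0610 to 0.0795).

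Among 33 transcription factors with regional roles in the gut 3 were called higher in ileum and 1 lower. Over all genes 1.27% were called higher and 1.31% lower. Osr2, a zinc finger factor, stood at 16.2, 9.17 and 12.2 FPKM in duodenum 24, 27 and 28 and at 45.1, 61.7 and 67.5 FPKM in ileum 24, 25 and 27 (2.14, SE 0.22, adjusted p = 0.0053), and its call was kept without any 1 library. Nr1h4 was also among the genes called higher. Onecut2, a factor of the duodenum, stood at 5.79, 11.6 and 7.17 FPKM in duodenum and 2.56, 0.104 and 0.0283 FPKM in ileum (-2.48, SE 0.54, adjusted p = 0.045). Gata4, known to keep ileal genes silent in the upper gut of mice, stood at 40.8, 42.4 and 37.8 FPKM in duodenum and 29.0, 15.1 and 5.47 FPKM in ileum 24, 25 and 27. It was called lower without ileum 24 (-2.02, adjusted p = 0.0212) and not with all 6 libraries (-1.50, adjusted p = 0.136). Pdx1 did not pass the filter: it stood at 0.764, 3.45 and 3.39 FPKM in duodenum and at most 0.0929 FPKM in ileum. Cdx1 (0.58, adjusted p = 0.0551) and Cdx2 (0.12, adjusted p = 0.622) were not called. Of 11 tested Hox genes 1 was called, Hoxc6 (1.12, SE 0.17, adjusted p = 0.0122). Hoxc6 was lost without duodenum 28 or ileum 25 (adjusted p = 0.0532 and 0.0670), and Onecut2 without any 1 library but ileum 24 (0.0682 to 0.156).

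Genes of other cell types were compared in the same way. B cell genes followed single libraries rather than sections: 4 of them (Cd79a, Cd79b, Ms4a1 and Cr2) summed to 32.1, 4.67 and 3.72 FPKM in duodenum 24, 27 and 28 and to 3.67, 25.8 and 63.2 FPKM in ileum 24, 25 and 27, and 0 of 18 were called or had an unadjusted p under 0.05. The whole list of 19 summed to 93.2, 27.2 and 21.4 FPKM in duodenum and 21.5, 84.0 and 183 FPKM in ileum. Of 17 genes of T cells and intraepithelial lymphocytes 2 were lower in ileum, granzyme A, Gzma (-1.68, SE 0.37, adjusted p = 0.0416), and the chemokine Ccl5 (-1.31, SE 0.21, adjusted p = 0.0162). Gzma stood at 69.1, 61.1 and 111 FPKM in duodenum and 26.7, 34.8 and 13.9 FPKM in ileum; it was lost without ileum 24 (adjusted p = 0.0506), and both were lost without duodenum 24, duodenum 28 or ileum 25. Of 11 smooth muscle genes, 14 proliferation genes and 15 stem and crypt cell genes 0 were called, with medians of 0.03, 0.07 and 0.21, and 0, 1 and 5 had an unadjusted p under 0.05, against 33.1% of all genes. The 12 smooth muscle genes in the table summed to 608 to 739 FPKM in duodenum and 641 to 687 FPKM in ileum. Of 9 tuft cell genes 1 was lower, Ltc4s (-1.75; lost without duodenum 24, duodenum 28, ileum 25 or ileum 27), and of 12 macrophage and dendritic cell genes 1 was higher, Lyz2 (1.24; lost without ileum 25), whose reads can mix with those of its neighbour Lyz1. Of 10 fat cell genes 0 were called and 1 had an unadjusted p under 0.05 (median 0.79).

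Other genes among the largest differences lay outside these lists. Tmigd1, an adhesion protein of epithelia, stood at 2.61, 1.09 and 1.94 FPKM in duodenum 24, 27 and 28 and at 60.5, 244 and 425 FPKM in ileum 24, 25 and 27 (6.05, SE 0.77, adjusted p = 0.0176, and 6.85 without ileum 24). It was lost without duodenum 24, duodenum 28 or ileum 25, and was 5.45 without ileum 27. Fam151a (5.44, SE 0.46, adjusted p = 0.00597) was kept without any 1 library. Slc5a8, a sodium-coupled carrier of short-chain fatty acids (4.29, SE 0.28), passed the filter through ileum alone. Slc5a8 stood at 0.0485 to 0.616 FPKM in duodenum and 15.4 to 31.0 FPKM in ileum. Mgat4c, a glycosyltransferase, differed by 4.69 (lost without duodenum 28 or ileum 25). On the lower side was Bbox1, the last enzyme of carnitine synthesis, at 11, 19.9 and 15.5 FPKM in duodenum and 2.98, 0.318 and 0.142 FPKM in ileum 24, 25 and 27 (-3.15, SE 0.52, adjusted p = 0.0263). The proton channel gene Otop3 (-3.44) and Gm766 (-3.55) were lower too. Apoa2, an apolipoprotein of liver and gut, stood at 13.7, 6.51 and 11.9 FPKM in duodenum 24, 27 and 28 and at most 1.83 FPKM in ileum (-2.37, SE 0.28, adjusted p = 0.00818; lost without ileum 25). It was highest in duodenum 24 and 28, as was the hepatocyte sum given above (28.7 and 20.7 FPKM), whose part in this difference was not tested. The claudin Cldn8 (1.49), 1 of 9 claudins tested, was higher and the manganese exporter Slc30a10 (-1.02), 1 of 17 metal genes, lower; the first was lost without any duodenum library or ileum 25, the second without duodenum 27 or 28 or ileum 27. All of the 12 largest lower genes were lost without duodenum 28 or ileum 25 (adjusted p 0.0657 to 0.158), 10 without duodenum 24, 9 without ileum 27 and 6 without duodenum 27.

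The jejunum, between both ends, was set beside them as a description. Its mean FPKM lay between the 2 ends for 136 of the 157 higher genes and 142 of the 162 lower genes. On a scale from the duodenum mean (0%) to the ileum mean (100%), the median higher gene lay at 43.0% in jejunum 28, 69.6% in jejunum 27 and 111% in jejunum 24, and at 81.0%, 107% and 110% in ileum 24, 25 and 27. The median lower gene lay at 51.4%, 69.9% and 126% in jejunum 28, 27 and 24, and at 65.8%, 107% and 126% in ileum 24, 25 and 27. Jejunum 24 thus lay at ileum levels and ileum 24 near jejunum 27 for these genes. The Fabp6 level was 6731 FPKM in jejunum 24 but 23.1 and 5.61 FPKM in the others (27 and 28), and Cck read 8.53, 21.3 and 26.4 FPKM in the same order.

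**Figure D5:**
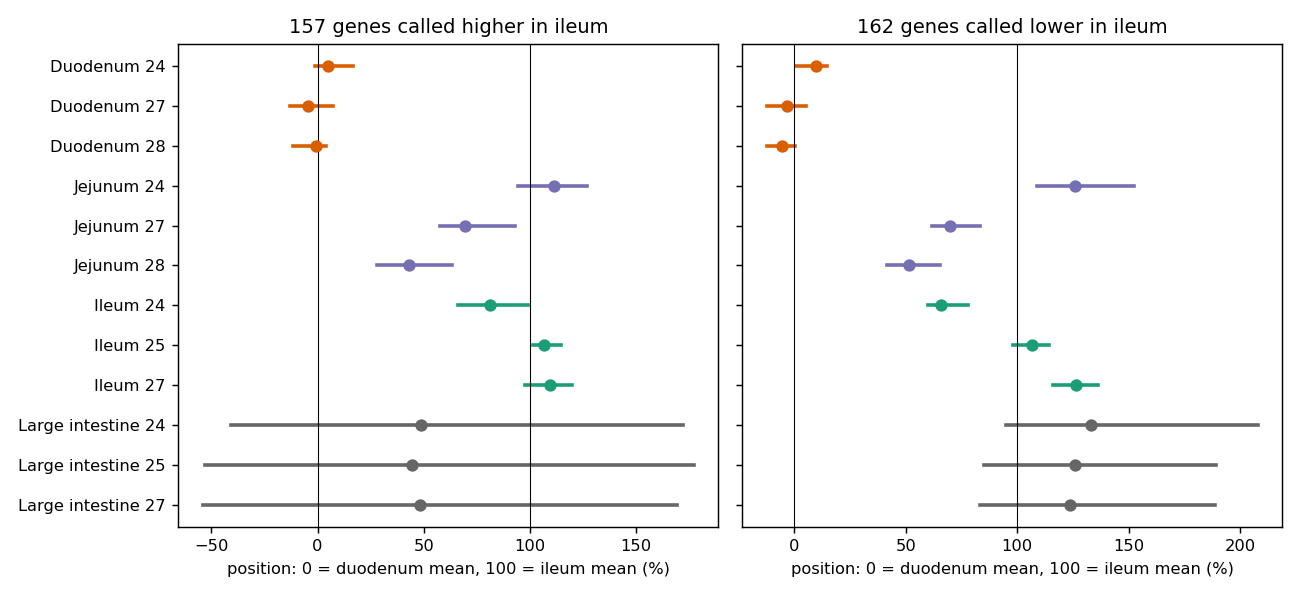
Position of each intestinal library between the duodenum mean (0%) and the ileum mean (100%) on the log2(FPKM + 1) scale, for the 157 genes called higher (left) and the 162 called lower in ileum (right); points are medians over genes and bars run from the lower to the upper quartile. Ileum 24 lies at 81.0% and 65.8%, jejunum 24 at 111% and 126%, and the large intestine at 44.6% to 48.8% on the left with wide bars.

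Whether these differences go on into the large intestine was described with large intestine against jejunum, fitted in the same way. By the labels this comparison uses none of the 6 libraries, but it holds jejunum 24, which lay at ileum levels. It called 991 of 13057 genes higher (7.59%) and 672 lower (5.15%), and 1231 and 774 without jejunum 24. The overlaps below are from the fit with jejunum 24 and were not counted without it. Of the 152 genes higher in ileum that were tested in both, 40 were also higher in large intestine, which is 26.3% of them and 5.41% of the 739 higher calls there, against 6.04% of all 12226 genes tested in both. They included Muc2, Atoh1, Guca2a, Pyy and Slc5a8, whose large intestine means were above those of ileum for all 5. Another 46 were lower in large intestine, 30.3% of the 152 against 5.50% of all genes, among them Defa21, Lyz1, Mmp7, Nts, Osr2, Slc34a2 and Reg3g. Of 140 genes lower in ileum 50 were also lower in large intestine, 35.7% of them and 7.44% of the 672 lower calls, against 5.50% of all genes. Among these were Reg1, Cck, Ghrl, Gsta1, Slc5a1 and Sis. The 13 that were higher in large intestine, 9.29% of the 140 against 6.04% of all genes, included Aqp8, Cyp2c55, Ces1g and Dmbt1. Aqp8 fell from 12.4 to 22.6 FPKM in duodenum to at most 1.95 FPKM in ileum and stood at a mean of 194 FPKM in large intestine.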

How the data were processed

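The authors deposited 1 table of FPKM for 23845 records and 15 libraries; all 15 columns matched a sample and 0 did not. Per the submitters' processing notes, CASAVA, FastQC, TopHat2 2.0.3, Bowtie 0.12.8, SAMtools 0.1.18 and Cufflinks 2.0.0 were used with mm10; per the labels, RNA of an integrity number above 7.0 went into an Illumina TruSeq RNA kit. Strand-specific counting is not given in the sources used here, so reads of overlapping antisense genes cannot be told apart. FPKM hold no read counts, so no counting interval can be given, and multiples of 1 read could not be recovered.

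Records that share a symbol (754 records of 258 genes, 64 of which passed the filter) were summed, which gave 23349 genes. Dates stand in place of 27 symbols (20 passed); these were kept apart and not named. Record starts matched GENCODE M21 gene starts 8413 times after adding 1, and 840 times as listed, so 1 was added. The 12384 genes that reached 1 FPKM in 3 or more of the 6 libraries were tested as log2(FPKM + 1) with limma 3.58.1 in R 4.3.3 (eBayes with trend and robust settings, statmod 1.5.0), with Benjamini-Hochberg adjustment. The fit held the 6 ileum and duodenum libraries only and no covariate. The procedure was tested on simulated data. Summaries and plots used Python 3.11.15, pandas 2.3.3, numpy 2.4.6 and matplotlib 3.10.9.

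The comparison, members and gene lists were chosen with earlier results of these data known. Genes named were the 12 largest called differences each way, up to 4 called members each way of each list, all bile acid genes, and a fixed list of regional genes; genes named as examples beyond these were picked after their values were seen. Some genes that the rule or the lists hold are not reported here; counts over lists include them. Alternatives were each library left out, a pseudocount of 0.1, no filter, a filter on the mean, 3 scalings, 1 fit of all 15 libraries, records kept apart, plain eBayes and a replicate block. Leaving out ileum 24 and duodenum 28 together was added after seeing the data.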

Additional observations from a re-analysis of the deposited data

How the results depend on the processing

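Counts of calls, not directions, moved with the processing. From 157 higher and 162 lower genes, leaving out 1 library gave 70 to 253 higher and 27 to 336 lower, the highest without ileum 24 and the lowest without ileum 25, and leaving out ileum 24 with duodenum 28 gave 238 and 279. A pseudocount of 0.1 gave 245 higher, no filter 99 lower, and scaling to the same sum 251 lower; the other counts stayed within 1.5 times, apart from the fits with a block. Large intestine against jejunum stayed within that range. No called gene named here reversed. Of 100, 65 lost the call without duodenum 28, 64 without ileum 25 and 49 without duodenum 24. Another 27 lost it without ileum 27, 17 without duodenum 27 and 1 without ileum 24, counts that can share genes. Each of these fits had 1 sample fewer, and the cause of the unequal losses was not tested.

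Both sections share the numbers 24 and 27 only, and the labels do not say what a number stands for. Deviations of same-numbered libraries correlated at -0.25 (24) and -0.07 (27), and those of unlike-numbered libraries at -0.14 to 0.19. With so few pairs, among them that of ileum 24, these values cannot say whether a number stands for an animal. A fit with a replicate block called 4 higher and 1 lower, and 58 and 31 in all 15 libraries. With the block 97 of the 100 called genes were lost in the 6-library fit and 72 in the fit of all 15 libraries. The 6-library fit leaves few degrees of freedom. Its numbers 25 and 28 belong to 1 library each, so its differences rest on numbers 24 and 27, among them ileum 24.

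Signs turned only for genes that were not called. With median-of-ratios scaling and scaling to the same sum these were Abcg2 (-0.012 and -0.0309), Cdx2 (-0.018 and -0.0372), Sct (-0.0251 and -0.044) and Ppara (-0.0775 and -0.0977). With quantile normalization they were Fabp2 (-0.277), Vdr (0.213) and Ppara (-0.064). With the replicate block they were Ppara (-0.0855) and Slc40a1 (0.289), with the block in all 15 libraries Ppara (-0.0433) and Sct (-0.0048), and without ileum 24 and duodenum 28 Ppara (-0.032) and Slc40a1 (0.342). Leaving out 1 library gave ranges across 0 for Abcb1a (-0.0089 to 0.529), Abcg2 (-0.0969 to 0.344), Npc1l1 (-0.464 to 0.118), Ppara (-0.0225 to 0.156), Sct (-0.0397 to 0.2645), Slc40a1 (-0.462 to 0.13) and Vdr (-0.0925 to 0.133). The cause was not tested. Depth is unknown and sets no limit that can be given here.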
